A study of Mus musculus with 8 samples.

Results

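The interferon-stimulated genes described here are 44 genes listed by name: 25 antiviral effectors, 8 GTPases of the Gbp and Irg families, 7 sensors of foreign nucleic acid and 4 transcription factors. The genes were taken by symbol from a list drawn up with earlier results of these data known. A probe was found on the array for 43 of the 44, all but Xaf1. Of these, 41 could be compared between tissues, out of 18266 genes compared in all; Iigp1 and Gbp6 were left out because their probes were too dim.

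Ly-6Chi monocytes were sorted from the blood and the spleen of a group of 4 mice and profiled on single-colour Agilent arrays, with 4 blood and 4 spleen samples. All samples came from female C57BL/6 mice aged 8 to 12 weeks, kept on chow, healthy and untreated. Tissue is the one difference between the groups that the labels give. The sort gate took CD11b-high cells with little CD90, B220, CD49b, NK1.1 or Ly-6G (lymphocyte, natural killer and neutrophil antigens) and little I-Ab, CD11c or macrophage antigen. A sample was 1000 cells, and 5 ng of RNA was amplified before labelling. The labels do not say whether a sample is a single mouse or a pool, so p-values here measure the spread between these samples, which may be technical.

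Values are log2 signals from the authors' table, in which every array has the same distribution and a median of 7.31. A value under 6.8 was taken as background. The scanner files deposited for blood 1, blood 2 and blood 3 do not hold the arrays of their table columns: the rank correlation between column and file was 0.842, 0.852 and 0.872, against 1.0 after rounding for the other 5 samples. Which of the sources holds the named blood samples was not settled. The results below come from the table. The medians of the whole set and of each role, and most of the larger single differences, are followed by their value over the 5 samples whose file and column match. That comparison has blood 4 as its only blood sample.

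Interferons are secreted proteins that signal through JAK kinases and STAT factors. Type I interferon leads to a complex that contains Stat2 and Irf9 and binds the interferon-stimulated response element, and interferon gamma acts largely through another element, the gamma-activated site. The genes switched on in this way degrade viral RNA, block viral assembly, sense foreign nucleic acid, or feed back on the pathway, and monocytes are among the cells that carry a basal level of many of them.

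The promoters of a few of these genes are shown because the shared element that links them can be read there directly. RefSeq promoters (from 250 bases before to 50 after the start) were matched for 34 of the 44 genes. The core of the interferon-stimulated response element, GAAA followed after any 2 bases by GAAA, was searched on both strands with overlapping matches kept. It occurred in 19 of the 34 promoters (55.9%), against 3.94% of the 10492 compared genes with a promoter and 3.99% of all 27025 genes in the table. The following stretches are the 250 bases before the start, 5′ to 3′ on the strand of the gene, with each match in capitals.

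Ifit3 (GRCm38.p6, chr19:34583279-34583528, plus strand): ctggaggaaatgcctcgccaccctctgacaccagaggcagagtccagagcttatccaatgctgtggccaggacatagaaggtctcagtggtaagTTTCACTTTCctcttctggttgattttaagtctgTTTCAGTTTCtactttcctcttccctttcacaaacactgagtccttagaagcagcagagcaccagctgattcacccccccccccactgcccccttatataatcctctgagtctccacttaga

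Isg15 (GRCm38.p6, chr4:156200819-156201068, minus strand): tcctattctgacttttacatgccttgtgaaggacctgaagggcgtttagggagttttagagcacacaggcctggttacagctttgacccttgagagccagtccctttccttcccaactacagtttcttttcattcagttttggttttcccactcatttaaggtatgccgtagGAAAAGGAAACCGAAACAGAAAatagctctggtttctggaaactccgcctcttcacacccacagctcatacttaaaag

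Oas3 (GRCm38.p6, chr5:120777660-120777909, minus strand): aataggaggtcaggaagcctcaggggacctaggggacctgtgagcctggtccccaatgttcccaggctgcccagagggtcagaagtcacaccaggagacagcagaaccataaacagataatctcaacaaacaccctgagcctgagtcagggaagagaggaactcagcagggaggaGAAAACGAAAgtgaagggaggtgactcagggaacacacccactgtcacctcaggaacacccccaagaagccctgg

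Stat2 (GRCm38.p6, chr10:128270248-128270497, plus strand): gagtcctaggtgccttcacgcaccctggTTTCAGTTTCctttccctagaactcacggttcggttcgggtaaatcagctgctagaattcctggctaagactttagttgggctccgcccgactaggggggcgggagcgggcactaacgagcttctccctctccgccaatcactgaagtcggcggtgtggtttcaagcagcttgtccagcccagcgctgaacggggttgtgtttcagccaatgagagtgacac

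Gbp2 (GRCm38.p6, chr3:142620413-142620662, plus strand): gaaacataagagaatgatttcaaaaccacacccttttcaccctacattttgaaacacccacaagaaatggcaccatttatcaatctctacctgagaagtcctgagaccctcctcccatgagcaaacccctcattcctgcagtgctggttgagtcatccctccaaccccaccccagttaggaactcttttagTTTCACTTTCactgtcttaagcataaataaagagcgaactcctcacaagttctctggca

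Irgm1 (GRCm38.p6, chr11:48871421-48871670, minus strand): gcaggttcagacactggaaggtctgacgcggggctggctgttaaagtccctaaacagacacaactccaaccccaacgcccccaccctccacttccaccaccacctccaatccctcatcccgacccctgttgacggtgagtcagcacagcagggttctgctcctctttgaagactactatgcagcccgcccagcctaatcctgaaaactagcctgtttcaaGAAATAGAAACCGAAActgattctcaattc

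Ifit3, Isg15 and Oas3 are antiviral effectors, Stat2 is a transcription factor, and Gbp2 and Irgm1 are GTPases. Isg15 had 3 overlapping matches between 78 and 57 bases before the start, and Irgm1 had 2 overlapping matches between 30 and 15 bases before it. Ifit3 had 2 separate matches on the opposite strand, and the other genes shown had 1 each. By role, the match occurred in 9 of 20 effector promoters, 5 of 6 GTPase promoters, 4 of 4 sensor promoters and 1 of 4 transcription factor promoters. The letters TTCNNNGAA of the gamma-activated site, searched on both strands, occurred in 8 of the 34 promoters (23.5%), among them Isg20, Ifi35, Ifit2 and Irf1, against 8.67% of the compared genes.

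In the authors' table, most interferon-stimulated genes were at a lower mean level in spleen than in blood Ly-6Chi monocytes. The direction turned when all 8 scanner files were used in its place: 4 of the 41 genes compared were then lower in spleen, and the median difference was 0.77 to 1.0 on the log2 scale in the 4 settings tried. In the table the spleen mean lay below the blood mean for 37 of the 41, where 51.2% of all 18266 genes lay below. The median difference, spleen minus blood, was -0.34 on the log2 scale, against -0.01 over all genes. No gene passed limma's test after Benjamini-Hochberg adjustment (0.00% of all genes called), and the smallest adjusted p over all genes was 0.0537 and among these genes 0.447. At an unadjusted p under 0.05, 9 of the 41 genes were lower in spleen, against 2.35% of all genes, and none was higher, against 3.09%. All spleen values lay below all blood values for 5 of the 41 (1.42% of all genes): Isg20, Ifi35, Mx1, Trim30 and Ifi204. Of these, Ifi35 had no value for spleen 2 and Ifi204 none for blood 1. None had all spleen values above all blood values (1.88% of all genes). A difference below -1 was found for 7 of them, against 1.23% of all genes. Over the 5 matching samples the median was -0.41 with 33 of 41 genes lower. The median difference was -0.34 for the 19 compared genes with the response element match and -0.34 for the 14 without it.

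**Figure D1:**
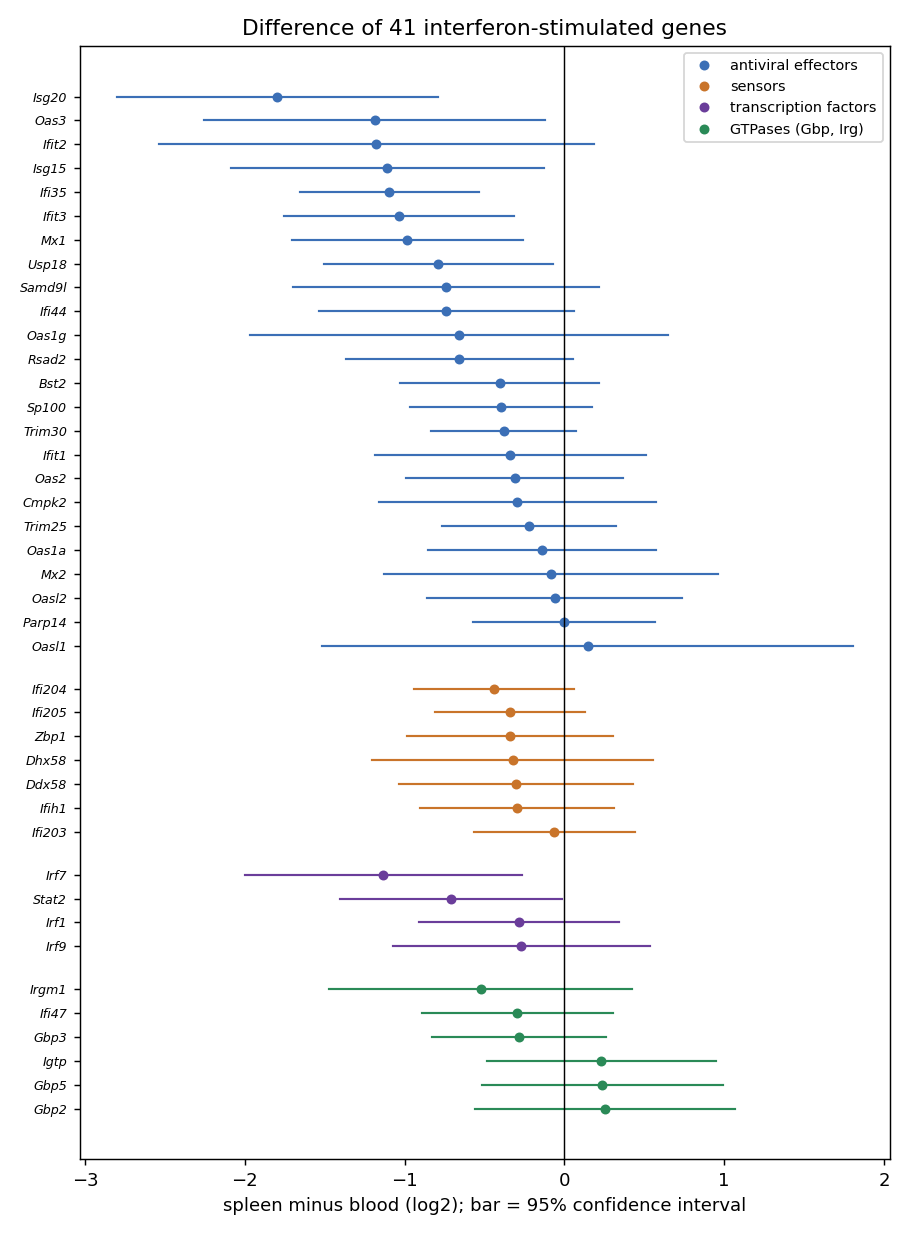
Difference of each of the 41 genes between spleen and blood (log2, horizontal axis), grouped by role, with points for the limma estimate and bars for its 95% confidence interval over 4 blood and 4 spleen samples. The estimates lie left of 0 for 37 genes, and the interval lies wholly left of 0 for 9 genes.

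Antiviral effectors held 6 of the 7 differences below -1. Of the 24 compared, 23 had a lower mean in spleen (51.2% of all genes did), with a median difference of -0.53. An unadjusted p under 0.05 was found for 7, all lower in spleen, against 2.35% of all genes. Over the 5 matching samples the median of this group was -0.53 as well. Isg20 is an exonuclease that degrades single-stranded RNA. Its probe lies at chr7:74779788-74779847 in build mm7, as the scanner files give it, and which exon the probes read is not given in the sources used here. Its log2 values were 11.01, 11.11, 11.24 and 10.18 in blood 1 to 4 and 9.84, 9.70, 7.83 and 9.0 in spleen 1 to 4. Blood 4 was the lowest blood sample and spleen 3 by far the lowest spleen sample, and the tissues did not overlap. The difference was -1.80 ± 0.45 (SE; 95% interval -2.80 to -0.79; limma, adjusted p = 0.506), or 3.47-fold lower in spleen, and it was -1.09 over the 5 matching samples. A further Isg20 probe gave -2.06.

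Ifi35, an interferon-induced protein that binds Nmi, had the smallest p of the genes described here (probe at chr11:101566736-101566795, mm7). It read 9.56, 10.10, 9.90 and 10.02 in blood and 8.49, 9.02 and 8.88 in spleen 1, 3 and 4, with no value for spleen 2. All 3 spleen values lay below the blood values, with blood 1 the lowest in blood. The difference was -1.09 ± 0.25 (SE; 95% interval -1.66 to -0.53; limma, adjusted p = 0.447), a 2.13-fold lower level, and -1.22 over the 5 matching samples. The empty cell is that of spleen 2, the highest spleen sample for most of the other genes. In the scanner files, scaled to the 75th percentile of each array, spleen 2 did have a value for Ifi35, 1.15, which lay above the 1.05 of blood 4, so the separation of the tissues rests on the empty cell.

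Ifit3 belongs to the tetratricopeptide proteins that bind viral RNA (probe at chr19:34289919-34289978, mm7). It read 12.73, 12.91, 12.72 and 12.60 in blood and 11.62, 12.60, 10.999 and 11.60 in spleen. The blood samples stood close together, and spleen 2 reached the level of the lowest blood sample while the other spleen samples were about a log2 unit or more lower. The difference was -1.03 ± 0.32 (SE; 95% interval -1.75 to -0.31; limma, adjusted p = 0.689) and -0.89 over the 5 matching samples. Mx1 belongs to the dynamin-like GTPases (probe at chr16:97829378-97829437, mm7). It read 11.05, 10.90, 11.10 and 11.08 in blood and 10.05, 10.83, 10.13 and 9.18 in spleen. Spleen 2 again came next to the blood samples, without reaching them, and spleen 4 was the lowest. The difference was -0.98 ± 0.32 (SE; limma, adjusted p = 0.726), a further Mx1 probe gave -1.09, and the value over the 5 matching samples was -1.03.

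Trim30, a RING-finger protein that restrains Toll-like receptor signalling, showed a small difference with separate tissues. It read 13.46, 13.77, 13.34 and 13.50 in blood and 13.27, 13.33, 12.91 and 13.04 in spleen. Blood 3 and spleen 2 lay next to each other at the border between the tissues. The difference was -0.38 ± 0.20 (SE; limma, adjusted p = 0.967), and -0.37 over the 5 matching samples. Trim25, a ubiquitin ligase that activates the RNA sensor Rig-I, read 14.33, 14.54, 14.41 and 14.67 in blood and 14.37, 13.92 and 14.51 in spleen 1, 3 and 4. The tissues overlapped, and the probes differed in sign, at -0.22 for the brighter and 0.33 for the dimmer.

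The other effectors with an unadjusted p under 0.05 were Oas3, Isg15 and Usp18. Oas3, which makes the 2′-5′ oligoadenylate that activates RNase L, read 11.63, 13.17, 12.13 and 12.69 in blood and 11.17, 12.47, 10.45 and 10.79 in spleen. Blood 1 lay below spleen 2, so that the tissues overlapped. The difference was -1.19 ± 0.48 (SE; limma, adjusted p = 0.832), it was -1.47 over the 5 matching samples, and a second Oas3 probe with 6 values gave -0.18. Isg15, a ubiquitin-like modifier, read 11.07, 11.24, 11.21 and 10.75 in blood and 8.83, 10.71, 9.45 and 10.85 in spleen. Here spleen 2 and spleen 4 were both near blood and spleen 1 was the lowest, with a difference of -1.11 ± 0.44 (SE; limma, adjusted p = 0.815), and -0.79 over the 5 matching samples. The scanner files place this Isg15 probe on chromosome 17 in build mm7, whereas RefSeq has the gene on chromosome 4 in GRCm38.p6, and which locus the signal comes from was not tested. Usp18, the protease that removes Isg15 from proteins, read 8.48, 9.91, 9.66 and 9.08 in blood and 8.38, 8.71, 8.27 and 8.61 in spleen. Blood 1 lay within the spleen range, and the other blood samples above it, with a difference of -0.79 ± 0.32 (SE; limma, adjusted p = 0.837), and -0.59 over the 5 matching samples.

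The remaining effectors ran from -1.18 for Ifit2 to 0.15 for Oasl1. Ifit2, Samd9l, Ifi44, Oas1g and Rsad2 lay at or below -0.66. Rsad2 is viperin, which makes a chain-terminating nucleotide, and its difference was -0.66 ± 0.32 (SE). Bst2 (tetherin, which holds budding virions at the membrane) differed by -0.41, Sp100 by -0.40, Ifit1 by -0.34, Oas2 by -0.31 and Cmpk2 by -0.29. Oas1a, Mx2, Oasl2 and Parp14 lay between -0.14 and 0.00. The probes of a gene did not always give the same size: Ifit2 gave -1.18 and -0.19, and Oas2 gave -0.31 and -1.76. Among the 20 genes with several usable probes, all probes had 1 sign in 16, and they disagreed for Irf9, Parp14, Sp100 and Trim25. Oas and Ifi200-family genes are close paralogs whose probes may cross-react, which was not tested.

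All 7 sensors had a lower mean in spleen, where 51.2% of all genes did. Their median difference was -0.32 (-0.25 over the 5 matching samples), and none had an unadjusted p under 0.05. Ifi204, of the DNA-binding Ifi200 family, was the one whose tissues did not overlap. Blood 2, 3 and 4 read 14.24, 14.14 and 14.22, blood 1 had no value, and the spleen samples read 13.85, 14.01, 13.63 and 13.56. Its blood values were close together and spleen 2 was the highest spleen value. The difference was -0.44 ± 0.22 (SE; limma, adjusted p = 0.952), and -0.46 over the 5 matching samples. Further Ifi204 probes gave -0.38 and -0.47. Ifi205, of the same family, read 14.64, 14.44, 14.31 and 14.34 in blood and 14.19, 14.36, 14.06 and 13.76 in spleen. Only spleen 2 reached into the blood range, and the difference was -0.34 ± 0.21 (SE). Another Ifi205 probe gave -0.09, and a dim one, above background on 3 arrays, gave 0.49.

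Zbp1, a sensor of Z-form nucleic acid, read 13.41, 14.44, 14.03 and 13.66 in blood and 13.33, 13.92, 13.77 and 13.17 in spleen. Blood 1 and blood 4 lay within the spleen range, and the difference of -0.34 ± 0.29 (SE) shrank to -0.11 over the 5 matching samples. Ddx58 (Rig-I), Ifih1 (Mda5) and Dhx58 (Lgp2), the cytoplasmic RNA helicases that detect viral RNA, differed by -0.30, -0.30 and -0.32. Further Ddx58 probes gave -0.10, -0.003 and -0.36, and a further Ifih1 probe gave -0.37. Ifi203 differed by -0.06 ± 0.22 (SE) on its brightest probe, and further Ifi203 probes gave -0.27 and -0.87.

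All 4 transcription factors had a lower mean in spleen (51.2% of all genes did), with a median difference of -0.50 (-0.64 over the 5 matching samples). Irf7, which drives production of type I interferon and is itself induced by it (probe at chr7:137682028-137682378, mm7), read 11.54, 12.27, 11.92 and 12.52 in blood and 10.15, 11.91, 11.10 and 10.56 in spleen. Spleen 2 lay above blood 1 and just below blood 3, and the other spleen samples were lower than every blood sample. The difference was -1.13 ± 0.39 (SE; 95% interval -2.0 to -0.26; limma, adjusted p = 0.731), a 2.19-fold lower level, and it was -1.58 over the 5 matching samples.

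Stat2 (probe at chr10:127793622-127793681, mm7) read 10.33, 9.96, 9.98 and 10.09 in blood and 10.11, 9.62, 8.67 and 9.12 in spleen. Here spleen 1, not spleen 2, was the sample that reached into the blood range. The difference was -0.71 ± 0.31 (SE; limma, adjusted p = 0.905), and -0.71 over the 5 matching samples. Irf1, a factor induced by interferon gamma, had values for 3 samples a tissue. Samples 2, 3 and 4 read 12.88, 12.88 and 13.31 for blood, and 12.90, 12.85 and 12.46 for spleen. The tissues overlapped, with a difference of -0.29 ± 0.27 (SE), and a further Irf1 probe with all 8 values gave -0.37. Irf9, the DNA-binding partner of Stat2, gave -0.27 on its brighter probe and 0.26 on the other.

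The GTPases had no common direction. Some proteins of these families attack the vacuoles that hold intracellular bacteria and parasites, and many are induced by interferon gamma. Of the 6 compared, 3 lay lower and 3 higher in spleen, and their median difference was -0.03 (-0.29 over the 5 matching samples). Irgm1 read 10.98, 11.80, 10.72 and 10.95 in blood and 10.06, 11.77, 9.90 and 10.62 in spleen. Blood 2 and spleen 2 stood about equal above all other samples, and the difference was -0.52 ± 0.42 (SE). It was -0.92 without spleen 2 and -0.29 without blood 2 or without spleen 3, so single samples set its size. Ifi47 read 11.59, 11.85, 11.79 and 11.26 in blood and 11.34, 11.92, 11.16 and 10.90 in spleen. Spleen 2 was the highest of all 8, and the difference of -0.29 ± 0.27 (SE) became 0.073 over the 5 matching samples.

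Gbp3 read 10.92, 11.58, 11.11 and 11.49 in blood and 10.99, 10.95, 11.37 and 10.67 in spleen, with overlapping tissues and a difference of -0.28 ± 0.24 (SE). The array names this probe by the older symbol Gbp4, and guanylate-binding genes are near copies of each other, so their probes may cross-react. Gbp2, Gbp5 and Igtp had higher means in spleen, by 0.25 ± 0.36, 0.24 ± 0.33 and 0.23 ± 0.32 (SE), each within its own error. Igtp varied little in spleen, from 10.21 to 10.40, and widely in blood, from 9.19 to 10.82. Iigp1 was under background in 7 of 8 samples, with 6.94 in spleen 1, and Gbp6 was under it in all 8.

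**Figure D2:**
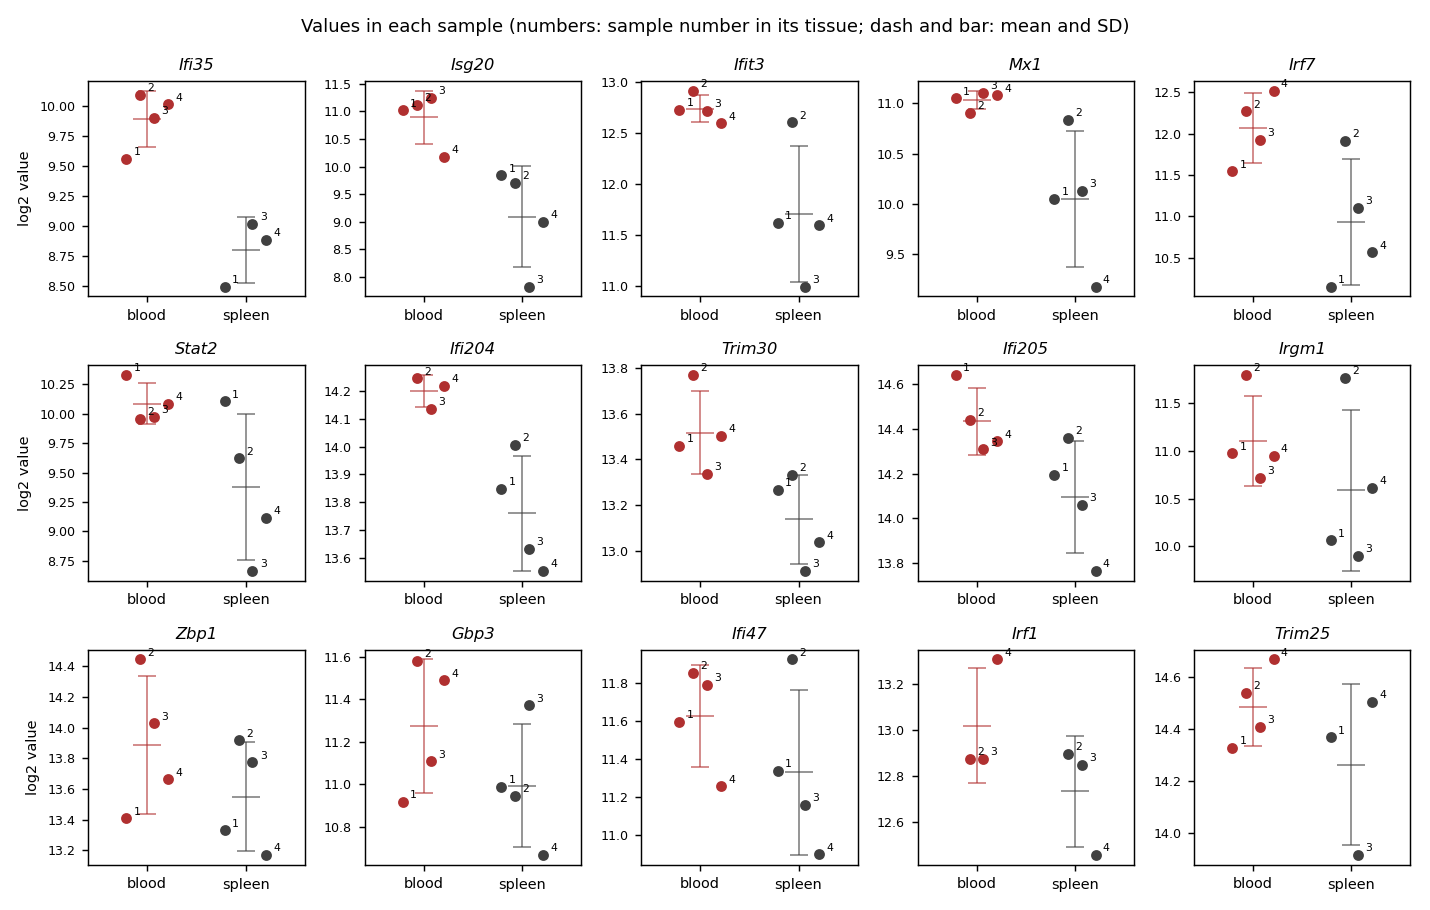
Log2 value (vertical axis, own scale in each panel) of the 15 genes described sample by sample, in blood and spleen, with the sample's number beside each point and the mean and SD of each tissue as dash and bar. Spleen 2 is the highest spleen sample in the panels of Ifit3, Mx1, Irf7, Ifi204 and Irgm1, and the tissues stand apart for Ifi35, Isg20, Mx1, Ifi204 and Trim30.

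Many of the genes moved together from sample to sample within a tissue. Each value was set against the mean of the gene's blood and spleen means, and the median was taken over the genes of each sample. The tissue difference is still part of these values, so only samples of the same tissue show the common movement. It was -0.01, 0.48, 0.24 and 0.24 in blood 1 to 4 and -0.23, 0.28, -0.41 and -0.45 in spleen 1 to 4. In blood 2, 38 of 41 genes lay above their own mean (46.6% of all genes did), and in spleen 2 it was 30 of 39 (46.5%). Spleen 1, 3 and 4 had 9 of 40, 9 of 41 and 7 of 41 above, against 56.4%, 42.7% and 48.6% of all genes. Blood 1 had 19 of 39, against 55.3%. The tissues therefore overlapped through spleen 2, which lay above blood 1, blood 3 and blood 4. Over all compared genes the same medians stayed between -0.08 and 0.07.

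**Figure D3:**
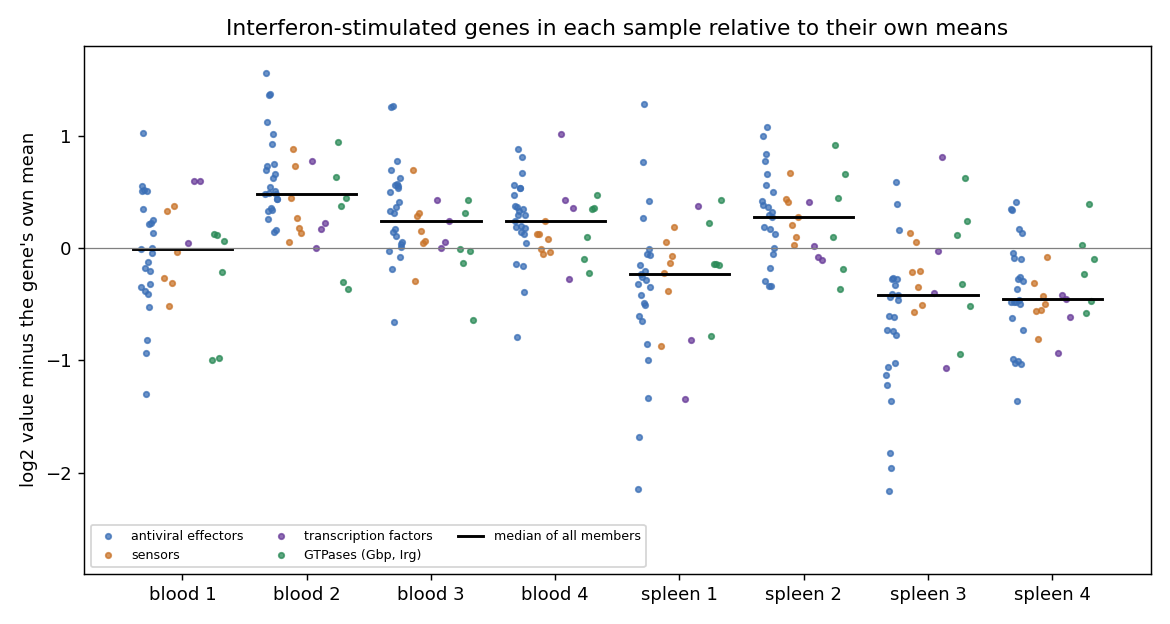
Log2 value of each of the 41 genes minus the mean of its blood and spleen means (vertical axis) in each of the 8 samples, coloured by role, with a line at the median of all genes shown. The median is 0.48 in blood 2 and 0.28 in spleen 2, and lies between -0.45 and -0.23 in the other spleen samples.

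Spleen 2 was the highest spleen sample for 26 of the 38 genes with 4 spleen values (68.4%, against 23.0% of all genes). By the scanner files each spleen sample lay on a different slide, so slide and sample cannot be told apart among the spleen samples. No other scanner file names the slide of spleen 2, but the slides of the arrays in the table columns of blood 1, 2 and 3 are not known. Blood 2 was the highest blood sample for 22 of 39 (56.4%, against 24.2%), and blood 1 the lowest for 22 of 39 (56.4%, against 22.5%). This order of the blood samples rests on table columns whose scanner files hold other arrays, and no such order can be taken from the matching samples. The labels do not say that samples sharing a number came from the same mouse. The roles did not all follow this order. In blood 1 the median deviation was -0.03 for effectors and -0.15 for sensors, but 0.59 for the transcription factors, of which 3 had a value. The transcription factors were the 1 role whose sample medians did not overlap between tissues, from 0.15 to 0.59 in blood and from -0.82 to -0.03 in spleen. Without spleen 2 the median difference of all 41 genes was -0.50, with 36 of them lower. Without blood 1 it was -0.45, with 40 lower.

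With tissue means removed, the median correlation between pairs of these genes over the 8 samples was 0.34 (666 pairs of 37 genes with all values), against 0.01 over all genes. The points share the 8 arrays and their scaling, and the value describes these arrays alone. It was 0.38 within effectors, 0.39 within sensors, 0.15 within GTPases and -0.29 within the 3 transcription factors with all values. Oas3, Dhx58 and Oas2 followed the median of the other genes most closely (r = 0.94, 0.94 and 0.93), and Gbp2 and Irf9 ran against it (-0.31 and -0.29). Isg15, among the larger tissue differences, had 0.26. The SD was larger in spleen than in blood for 32 of 41 genes (78.0%, against 51.2% of all genes). The median SD was 0.39 in blood and 0.49 in spleen.

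The interferons themselves were near or below background. Ifnb1, Ifna4 and Ifng read under 6.8 in all 8 samples and Ifna2 in the 7 with a value, so no difference could be measured; Ifna5 had no named probe. Of 8 receptor and signalling genes, 6 had a lower and 2 a higher mean in spleen (51.2% of all genes lay lower), with a median of -0.09. None had an unadjusted p under 0.05. The 3 with the smallest p were Jak2 at -0.53 ± 0.35, Jak1 at 0.30 ± 0.27 and the receptor chain Ifnar2 at -0.27 ± 0.29 (SE). Of 6 inhibitors of the pathway, 5 were higher and 1 lower in spleen, with a median of 0.20. Among these inhibitors too, none had an unadjusted p under 0.05. Socs3, which blocks JAK kinases, differed by 0.46 ± 0.43, the phosphatase Ptpn11 by 0.35 ± 0.24 and Pias1 by -0.50 ± 0.27 (SE). Of 12 compared genes that lead to interferon production, 6 lay lower in spleen and 6 higher (median 0.03). The adaptor Myd88 differed by 0.83 ± 0.39 (SE; limma, adjusted p = 0.940), the kinase Ikbke by 0.48 ± 0.32 and the adaptor Ticam1 by -0.54 ± 0.39 (SE).

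A further list of 50 interferon-stimulated genes gave 39 that could be compared, of which 32 lay lower in spleen and 7 higher (median -0.24). Over all genes 51.2% lay lower. In this list 1 gene was lower and 2 were higher at an unadjusted p under 0.05, where 2.35% and 3.09% of all genes were, so these counts are near the background. Cd274, the checkpoint ligand PD-L1, went the other way from most: it read 6.76, 6.46, 6.79 and 7.0 in blood and 8.87, 7.78, 8.21 and 8.44 in spleen. Every spleen sample was higher than every blood sample. Blood 4 was the 1 blood sample above background, and the gene entered the comparison through its 4 spleen values, so the fitted difference of 1.57 ± 0.27 (SE; limma, adjusted p = 0.153) sets measured spleen values against blood values mostly at background. The chemokine Cxcl10 read 8.28, 8.48, 8.56 and 7.78 in blood and 9.01, 8.70, 9.22 and 8.71 in spleen, also without overlap, with a difference of 0.64 ± 0.24 (SE; limma, adjusted p = 0.80). Slfn8 differed by -0.71 ± 0.28 (SE; limma, adjusted p = 0.841). The sample pattern recurred in this list: the median deviation was 0.23 in spleen 2 and between -0.29 and -0.20 in the other spleen samples.

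Of 9 markers of Ly-6C-high monocytes, 8 had a probe, and none of these was below background on all arrays. Of the 6 compared, 4 had a lower and 2 a higher mean in spleen. Ccr2 was the 1 without overlap, at 13.89 to 14.47 in blood and 13.43 to 13.87 in spleen 1, 2 and 4. Over all genes, 1.42% had all spleen values below all blood values. Its difference was -0.41 ± 0.24 (SE). Spleen 3 had no value, so the narrow separation does not cover all spleen samples, and Ccr2 is not part of the sum given below. Markers of other cells differed between the sorts. In bulk samples, fewer cells of a type and less RNA per cell cannot be told apart. Of 8 compared neutrophil genes, 7 were higher in spleen. For 6 of them all spleen values lay above all blood values, against 1.88% of all genes. The summed level of the 8 on the log2 scale was 11.4 to 12.5 in blood and 15.4 to 16.8 in spleen. Of 6 compared markers of Ly-6C-low monocytes, 5 were higher, and the sums over the 4 with a value in every sample (all but Spn and Itgal) were 12.62 to 12.65 in blood and 12.83 to 13.76 in spleen. Of 6 platelet genes, 5 were lower, and the sums over the 5 with a value in every sample overlapped, at 10.6 to 12.5 and 10.2 to 11.3. The part of these markers in the lower interferon-stimulated genes was not tested. Plasmacytoid dendritic cells, a major source of type I interferon, showed no separation: the sums were 11.80 to 12.00 and 11.76 to 12.39, and Siglech was below background on all arrays. Sums over the 5 Ly-6C-high monocyte markers with a value in every sample overlapped (14.6 to 15.0 and 14.4 to 15.1), as did those of B cells (9.33 to 9.74 and 9.31 to 9.99), T cells (10.2 to 10.5 and 10.3 to 11.5, with Lck below background) and natural killer cells (8.90 to 9.39 and 9.03 to 9.76, with Klrb1c and Gzma below background).

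The direction for the whole set depended on which source was taken for blood 1, 2 and 3. In the scanner files, scaled to the 75th percentile of each array, the 41 genes lay a median of -1.25, -1.13 and -1.38 from their spleen mean in the files of blood 1, 2 and 3, against 0.35 in that of blood 4. In the table the same values were 0.21, 0.64, 0.37 and 0.41. With all 8 scanner files, 37 of 41 genes were thus higher in spleen and 4 lower, with a median of 1.0, and no gene of the set passed the adjusted threshold there either. Ifit3 read 2.95 higher in spleen in those files, against -1.03 in the table. Over the 5 matching scanner files 34 of 41 were lower, with a median of -0.35. Blood 4 and spleen 4 were hybridised on the same slide, and between them 34 of 41 were lower in spleen, with a median of -0.60, both arrays being single samples.

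**Figure D4:**
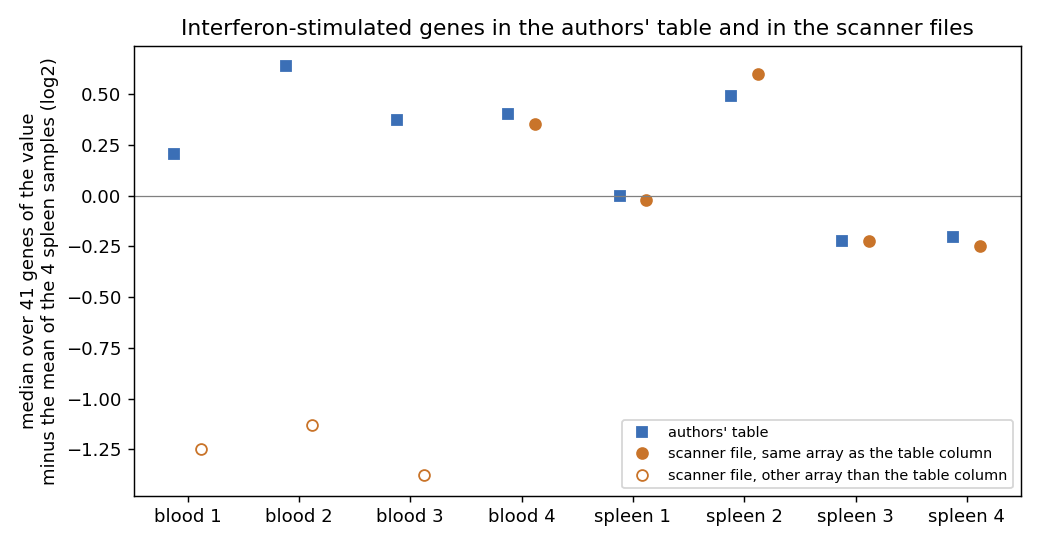
Median over the 41 genes of the log2 value minus the mean of the 4 spleen samples (vertical axis), for each sample, in the authors' table (squares) and in the scanner files (circles, open where file and table column hold different arrays). Table and file lie together for blood 4 and the 4 spleen samples, and the files of blood 1, 2 and 3 lie at -1.25, -1.13 and -1.38.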

How the data were processed

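RNA of sorted Ly-6Chi monocytes from blood and spleen (4 samples each) was amplified and hybridised to single-colour Agilent arrays. The deposited table holds the authors' processed log2 values; the submitters' processing notes name limma, and which normalization was used is not given in the sources used here. The deposited scanner files hold linear intensity, extracted with Agilent Feature Extraction 9.5.1.1 per the file headers, and were used for names, for probe positions in build mm7 and for alternatives.

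Of 41174 probes, 22951 were named through their accession in RefSeq and the other 18223 kept the name in the files. Probes above 6.8 (log2), where 95% of probes were well above background, in at least 4 of 8 samples and with at least 3 values per tissue were kept, and the brightest stood for its gene, which left 18266 genes. Tissues were compared with limma 3.58.1 (lmFit, eBayes; R 4.3.3), unpaired, with Benjamini-Hochberg adjustment at 0.05 over all genes. The script was tested on simulated data. Values were given by sample for genes whose tissues did not overlap, and, in each role, for the 3 genes with the smallest p and the brightest, plus any gene over 0.3 higher in spleen. Oas3, Isg15 and Usp18, the other genes with an unadjusted p under 0.05, were added after their values were seen. The brightest probe is the one with the highest mean, so a probe with empty cells can be chosen. The genes and lists were chosen with earlier results of these data known. A gene of the signalling list is not reported here. In all, 22 alternatives were computed. The number of arrays limits the precision.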

Additional observations from a re-analysis of the deposited data

Results flagged for a closer look

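The GTPases were flagged for spleen 2. Their median deviation from their own means was 0.27 in spleen 2, whereas the other 3 spleen samples lay between -0.17 and -0.10. This gap took up more of the range than Dixon's 95% critical value for 4 samples allows. It was the 1 such case among 41 sets of 4 samples that were examined, and chance gives about 1 in 20. A high spleen 2 was not particular to the GTPases, of which 4 of 6 lay above their own mean there (46.5% of all genes did). The effectors had 0.30 in spleen 2, with the other spleen samples from -0.61 to -0.30. The sensors had 0.27, with the others from -0.50 to -0.13, and the transcription factors -0.03, with the others from -0.82 to -0.21.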

How the results depend on the processing

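With all 8 scanner files in place of the table, the direction turned. The 4 settings were the 75th percentile scaling, normexp with quantile normalization, median signal with quantile normalization, and the 75th percentile with the slide as a random block. In each of them 4 genes were lower in spleen instead of 37. The median difference over all 41 genes was 1.0, 0.77, 0.78 and 0.98 in that order. It was 1.19, 0.90, 0.88 and 1.15 for the effectors and 0.57, 0.51, 0.51 and 0.53 for the GTPases. It was 1.0, 0.92, 0.92 and 0.98 for the sensors and 0.77, 0.63, 0.62 and 0.74 for the transcription factors. Of the 18 genes given by sample, Ifi35 alone kept its direction in all 4. In the order above, the differences were Gbp3 0.36, 0.30, 0.30 and 0.34; Ifi204 1.01, 0.92, 0.92 and 0.98; Ifi205 0.43, 0.42, 0.42 and 0.41. Next came Ifi47 0.89, 0.85, 0.82 and 0.87; Ifit3 2.95, 2.52, 2.47 and 2.88; Irf1 0.15, 0.054, 0.063 and 0.15. Those of the following genes were Irf7 1.06, 0.76, 0.74 and 1.03; Irgm1 0.77, 0.73, 0.72 and 0.72; Isg20 0.95, 0.69, 0.66 and 0.91. Then stood Mx1 0.77, 0.67, 0.65 and 0.73; Stat2 0.63, 0.51, 0.50 and 0.63; Trim25 0.36, 0.32, 0.32 and 0.34. Last came Trim30 1.1, 1.03, 1.05 and 1.07; Zbp1 0.68, 0.60, 0.59 and 0.64. The other genes with a small p gave Isg15 1.83, 1.53, 1.51 and 1.76; Oas3 1.19, 0.92, 0.92 and 1.17; Usp18 0.14, 0.028, 0.030 and 0.15. Apart from the files of blood 1, 2 and 3 themselves, the cause was not tested.

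Over the 5 matching samples Ifi47 turned to 0.073 in the table and 0.056 in the scanner files, where Zbp1 turned to 0.025. The GTPase median moved to -0.29 in that table, to -0.27 in those files and to -0.34 within the slide of blood 4 and spleen 4, where the transcription factors reached -0.91 and Isg15 turned to 0.10. Trim25 turned to 0.33 with a background filter on all 8 arrays, which took its other probe. The other differences of these 18 genes kept their sign under the alternatives run. Over all 41 genes, 10 and 9 turned in the 5 matching samples of the table and of the scanner files, and 1 to 5 when a sample was left out.

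Leaving out 1 sample at a time moved some of the smaller differences by over 1.5 times. Zbp1 went to -0.15 without blood 2, Trim25 to -0.049 without spleen 3, Gbp3 to -0.17 and Ifi47 to -0.15 without spleen 4, and Irf1 to -0.14 without blood 4. Stat2 was -0.47 without spleen 3, and Isg15 -0.73 without spleen 1. Between 32 and 40 of the 41 genes were lower. The median ranged from -0.50 to -0.25 over all 41 genes, from -0.66 to -0.44 for effectors, from -0.48 to -0.20 for sensors and from -0.58 to -0.39 for transcription factors. For GTPases it ranged from -0.18 to 0.014, and was above 0 without blood 4 and without spleen 4.

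The number of all genes past the adjusted threshold was 0 and moved to 13 when the number of a replicate entered as a random block (correlation 0.21) and 1 as a fixed block. Averaging the probes of a gene gave 7, a trend with intensity together with robust variances 8, weighting the arrays 9 and the filter on all 8 arrays 1. With the 4 scanner settings it was 1, 5, 5 and 1, and leaving out samples gave 0 to 3. None of the 41 genes passed under any setting with a test. Whether the numbers pair the samples is unclear. Same-numbered samples correlated at 0.091 to 0.140, more than any other blood and spleen samples (at most 0.034), and the block changed no direction.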
